A study of Mus musculus with 15 samples.

Results

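The genes described here are the GIMAP family (GTPases of the immunity-associated proteins), taken as the 8 mouse genes Gimap1, Gimap3, Gimap4, Gimap5, Gimap6, Gimap7, Gimap8 and Gimap9. They were found by name, through the transcript accession of each probe. Of these 8 genes, 7 were read by 8 probes (Gimap3 has 2 probes), and Gimap8 was not analysed here. The array has 41174 probes, counted here as 32301 genes. Of these, 18217 are matched RefSeq symbols and the others are names without a RefSeq match. Shares of all genes are taken over both kinds. GIMAP proteins are small GTP-binding proteins of membranes that control the survival of lymphocytes. They are made in T cells, B cells and natural killer cells, and some members are also made in endothelial cells. Loss of Gimap5 in rodents leaves too few T cells, and the family is best known for keeping resting lymphocytes alive and for its genes lying side by side in the genome.

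The data come from 15 single-colour arrays of male mice, which fall into 5 groups of 3. Cardiac allografts at POD5 (postoperative day 5) were C57BL/10 (B10, H-2b) hearts joined to the abdominal vessels of CBA (H-2k) recipients. Hepatic allografts at POD5 or POD8 were B10.BR (H-2k) livers put in place of the liver of B10.D2 (H-2d) recipients. The labels name no drug treatment or age, and they call the 3 cardiac and 3 hepatic controls normal tissue, while the study's results call the control tissue isografts, so whether the controls were operated on cannot be told, and their strain is not given. The labels number the arrays of a group without tying them to animals, so that the P-values measure the spread between these arrays. All levels are log2 signals on 1 scale, quantile normalized over the 15 arrays, and a level of one gene is not set against a level of another.

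The upper quartile of the scanner signal ran from 87.7 on a hepatic control to 1154 on a cardiac control, and between 52.5% and 70.5% of the probes of an array lay well above background. Arrays of a group correlated at 0.956 to 0.994 over all probes, with the lowest value among the hepatic controls. The tissue labels were borne out by the markers: 6 of 6 cardiomyocyte genes were higher and 5 of 5 hepatocyte genes lower in cardiac than in hepatic controls. Of all genes 24.1% were called higher and 23.5% lower there. The cardiac allografts shared a slide with 1 hepatic allograft, whereas the cardiac controls had a slide of their own, so in the heart the slide and the group cannot be told apart. The hepatic allografts at POD5 shared no slide with the hepatic controls or with the allografts at POD8. In those comparisons too, slide and group cannot be told apart.

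The 8 genes form a single run on mouse chromosome 6 in the order Gimap8, Gimap9, Gimap4, Gimap6, Gimap7, Gimap1, Gimap5 and Gimap3, as listed by RefSeq for GRCm38.p6. Promoter windows from RefSeq (GRCm38.p6) were found for all 8 genes, each 300 bases long and running from 250 bases before the start site to 50 after it. Of these windows 3 are shown, chosen by the calls. Gimap7, like Gimap1 and Gimap4, was called higher in all 3 comparisons of allografts with controls. Gimap6 was called in none of the 3. Gimap9, like Gimap5 and the brighter probe of Gimap3, was called in the heart only. The window of Gimap7 is chr6:48718371-48718670 on the plus strand, that of Gimap6 is chr6:48708195-48708494 on the minus strand, and that of Gimap9 is chr6:48675885-48676184 on the plus strand. Each is written 5′ to 3′ in the direction of the gene, with capitals on the letters AGGAAG, a form of the sites bound by ETS factors, or on their reverse complement.
Gimap7: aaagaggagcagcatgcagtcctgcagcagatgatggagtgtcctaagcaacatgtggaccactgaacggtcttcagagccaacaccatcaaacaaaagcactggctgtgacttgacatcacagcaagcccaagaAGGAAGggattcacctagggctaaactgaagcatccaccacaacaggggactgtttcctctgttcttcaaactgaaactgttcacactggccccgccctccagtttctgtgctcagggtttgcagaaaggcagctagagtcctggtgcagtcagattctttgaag
Gimap6: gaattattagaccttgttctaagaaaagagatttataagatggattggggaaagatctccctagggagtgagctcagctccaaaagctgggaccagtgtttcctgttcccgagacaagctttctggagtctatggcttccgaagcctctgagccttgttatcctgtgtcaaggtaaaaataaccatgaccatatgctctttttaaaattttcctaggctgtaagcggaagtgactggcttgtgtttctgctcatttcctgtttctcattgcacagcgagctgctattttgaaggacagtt
Gimap9: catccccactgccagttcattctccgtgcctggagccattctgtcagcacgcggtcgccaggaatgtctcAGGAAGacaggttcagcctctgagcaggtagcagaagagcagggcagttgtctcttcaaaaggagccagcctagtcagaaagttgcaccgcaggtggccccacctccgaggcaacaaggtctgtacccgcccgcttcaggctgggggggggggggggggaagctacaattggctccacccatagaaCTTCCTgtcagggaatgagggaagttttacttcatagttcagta

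The letters AGGAAG, searched on both strands, occurred in a window of 7 of the 8 genes and in 35.4% of all 32851 promoter windows of this length, and the Gimap6 window was the one without them. Other forms of ETS sites were not searched, so the Gimap6 window, which holds CGGAAG, is not shown to lack such sites. In Gimap7 the match began at position -115 relative to the start site, and in Gimap9 the matches began at positions -180 and 7. The letters TGTGGT, a core of RUNX sites, occurred in Gimap1, Gimap4 and Gimap7 and in 16.8% of all windows. GAAA followed after 2 free bases by a second GAAA, a core of interferon response elements, occurred in none of the 8 genes and in 3.44% of all windows. None of the 3 patterns contains another, and a match is a description of the window and not a site shown to be bound.

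In cardiac allografts at POD5, 6 of the 7 measured GIMAP genes were higher than in the cardiac controls and Gimap6 was not. The differences of the 6 ran from 1.28 to 3.42 on the log2 scale, and the median over all 7 was 1.87, against a median of 0.03 over all genes. The share of all genes called higher was 15.5%. For 6 of the 7 genes the lowest allograft lay above the highest control, which was so for 30.0% of all genes. RNA was taken from whole tissue, in which fewer cells of a type and less RNA per cell cannot be told apart.

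Gimap7, whose GTPase becomes active when the protein pairs with itself, stood at 6.87, 6.43 and 6.88 in the 3 cardiac allografts and at 2.97, 2.94 and 4.03 in the 3 controls. Every allograft lay far above every control, and the difference was 3.42 ± 0.34 (SE, limma, adjusted P-value 0.00250), which is 10.7-fold. With normexp background correction it was 1.09 (adjusted P-value 0.00103), so that its size depended on the background correction and its offset. The normexp setting adds an offset of 50 to every signal, which shrinks differences between dim signals. Gimap3, a membrane-bound member that binds proteins of the Bcl2 family, stood at 8.25, 7.63 and 8.09 in allografts and at 4.52, 4.69 and 5.37 in controls. Its difference was 3.13 ± 0.29 (adjusted P-value 0.00196), its second probe gave 3.21 ± 0.31 (adjusted P-value 0.00224), and normexp correction gave 1.77 (adjusted P-value 0.000701). The 2 probes of Gimap3 followed each other across the 15 arrays (r = 0.9965).

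Gimap5, the member whose loss causes lymphopenia in rodents, stood at 10.80, 11.07 and 11.07 in cardiac allografts and at 8.95, 8.91 and 9.23 in controls. The spread within each group was small beside the difference of 1.95 ± 0.14 (adjusted P-value 0.00117), a 3.87-fold change. Gimap4, which speeds the death of T cells once it is under way, rose by 1.75 ± 0.10 (adjusted P-value 0.000761), from 7.26 to 7.40 in controls to 8.94 to 9.13 in allografts. Gimap1, which mature T and B cells need to persist, rose by 1.28 ± 0.17 (adjusted P-value 0.00524), from 9.35 to 9.67 in controls to 10.60 to 11.11 in allografts. These 3 genes, together with Gimap9, formed a middle range of 2.43-fold to 3.87-fold.

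Gimap9 lay at 8.77, 9.09 and 8.91 in cardiac allografts and at 7.02, 6.93 and 7.20 in controls. The groups did not overlap, and the difference was 1.87 ± 0.13 (adjusted P-value 0.00105). Gimap6, a member tied to autophagy, lay at 10.57, 10.55 and 10.60 in allografts and at 10.39, 10.60 and 10.62 in controls. Its groups overlapped, and the difference of 0.04 ± 0.10 (adjusted P-value 0.801) had a 95% interval from -0.21 to 0.28, which leaves room for small changes in either direction. Leaving out any 1 of the 6 arrays kept the count of called members at 6. With the Bonferroni adjustment used in the study's methods, limma called 0 of the 7 genes, and so did the study's standardized fold change (SFC).

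**Figure D1:**
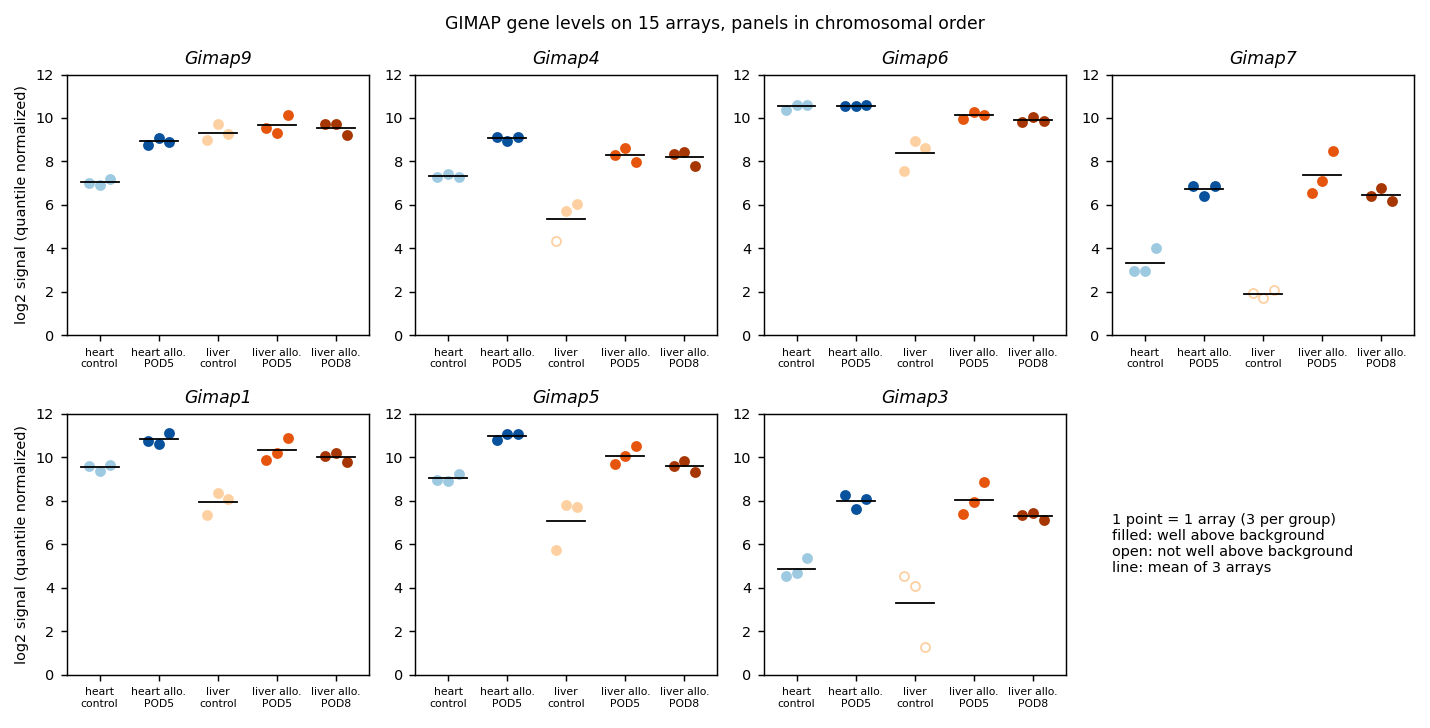
Log2 signal of the 7 measured GIMAP genes (vertical axis) on each of 15 arrays in 5 groups (horizontal axis), with 1 panel per gene in chromosomal order, points for arrays, a line for the mean of 3 arrays and open points for signals not well above background. In 6 of the 7 panels the cardiac allografts lie above the cardiac controls, the exception being Gimap6, and in the Gimap9 panel the 3 liver groups overlap.

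In hepatic allografts at POD5, 3 of the 7 genes were called higher than in the hepatic controls, namely Gimap7, Gimap4 and Gimap1, against 2.50% of all genes. The median difference over the 7 genes was 2.92, against -0.08 over all genes. For 6 of the 7 genes every allograft lay above every control, which was so for 12.2% of all genes. The hepatic controls were the dimmest group, and Gimap3 and Gimap7 lay well above background on 0 of their 3 arrays and Gimap4 on 2 of them.

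Gimap7 stood at 6.53, 7.11 and 8.48 in the hepatic allografts at POD5, whereas the controls gave 1.96, 1.70 and 2.09, which are not well above background. The measured difference was 5.46 ± 0.52 (adjusted P-value 0.0148), and as the controls give only a bound, Gimap7 was at least 8.24-fold higher. With normexp correction the difference was 1.74 and did not pass (adjusted P-value 0.0521). A bound sets the mean of the allografts against a floor on each control array, which is the dimmest signal still marked as well above background there, or the signal of the probe itself if higher. Gimap4 stood at 8.28, 8.62 and 7.96 in allografts and at 4.35, 5.74 and 6.03 in controls. It rose by 2.92 ± 0.49 (adjusted P-value 0.0471), and its first control was not well above background. With normexp correction it gave 1.84 (adjusted P-value 0.0258). Gimap1 stood at 9.86, 10.19 and 10.91 in allografts and at 7.33, 8.36 and 8.09 in controls, a difference of 2.39 ± 0.39 (adjusted P-value 0.0455).

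The other 4 genes did not pass the test, although 3 of them were separated. Gimap3 gave 4.76 ± 0.96 (adjusted P-value 0.0690), which as a bound is at least 13.2-fold, from allografts at 7.37 to 8.85. Its second probe gave 4.97 ± 0.78 and passed (adjusted P-value 0.0428). Gimap5 stood at 9.69, 10.04 and 10.50 in allografts and at 5.73, 7.79 and 7.72 in controls, with the first control apart from the other two, and its difference was 3.00 ± 0.63 (adjusted P-value 0.0737). Gimap6 stood at 9.95, 10.28 and 10.15 in allografts and at 7.58, 8.94 and 8.63 in controls, a difference of 1.75 ± 0.38 (adjusted P-value 0.0806). Here too the first control, the dimmest array of the series, was the lowest.

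Gimap9 was the one gene of the 7 whose hepatic groups overlapped. It stood at 9.55, 9.33 and 10.14 in allografts at POD5 and at 8.98, 9.74 and 9.25 in controls. The difference was 0.35 ± 0.30 (adjusted P-value 0.563), with a 95% interval from -0.41 to 1.11. The count of 3 called genes rested on single arrays: it was 0 without hepatic allograft 1, without hepatic allograft 2 or without control 2, and 1 without hepatic allograft 3 or without control 3. It became 6 when all 5 groups shared 1 estimate of spread, and 1, namely Gimap7, with the slide as a random block.

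In hepatic allografts at POD8, which were set against the same 3 controls, the same 3 genes were called higher, against 3.54% of all genes. Gimap7 stood at 6.41, 6.77 and 6.16, a measured difference of 4.53 ± 0.20 (adjusted P-value 0.00179) and a bound of at least 4.34-fold. Gimap4 differed by 2.82 ± 0.49 (adjusted P-value 0.0428) with allografts at 8.34, 8.43 and 7.79. Gimap1 differed by 2.08 ± 0.30 (adjusted P-value 0.0294) with allografts at 10.06, 10.19 and 9.76. As at POD5, all genes but Gimap9 had allografts wholly above the controls, which was so for 11.9% of all genes, and the median over the 7 was 2.52.

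The genes that did not pass at POD8 were the same 4. Gimap3 gave 4.02 (adjusted P-value 0.0739, at least 7.86-fold), and its second probe gave 4.12 and passed (adjusted P-value 0.0408). Gimap5 gave 2.52 (adjusted P-value 0.0890) and Gimap6 gave 1.52 (adjusted P-value 0.0920). Gimap9 stood at 9.70, 9.73 and 9.24, a difference of 0.23 ± 0.25 (adjusted P-value 0.616), within the range of the controls. One slide held 2 allografts and 2 controls of this comparison, and within it the differences were 2.28 for Gimap1, 3.09 for Gimap3, 3.34 for Gimap4, 2.97 for Gimap5, 1.66 for Gimap6, 4.76 for Gimap7 and 0.36 for Gimap9, with 0 of 7 called on those 4 arrays. The count was 1 without hepatic allograft 1, 2 or 3 at POD8 and 5 without control 1.

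Between POD8 and POD5 the hepatic allografts gave 0 called GIMAP genes of 7 by limma, 0 by the methods' t-test and 0 by SFC, and limma called 0.00% of all genes. At an unadjusted P-value under 0.05 the counts were 0 of 7 and 13.2% of all genes. The 7 differences, POD8 minus POD5, ran from -0.92 for Gimap7 (95% interval -2.24 to 0.39) to -0.10 for Gimap4 (95% interval -0.73 to 0.52), with a median of -0.32. For each of the 7 genes the arrays of the 2 days overlapped. The second probe of Gimap3 was the exception among the 8 probes, with POD8 wholly below POD5 and a difference of -0.85 (adjusted P-value 0.419).

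**Figure D2:**
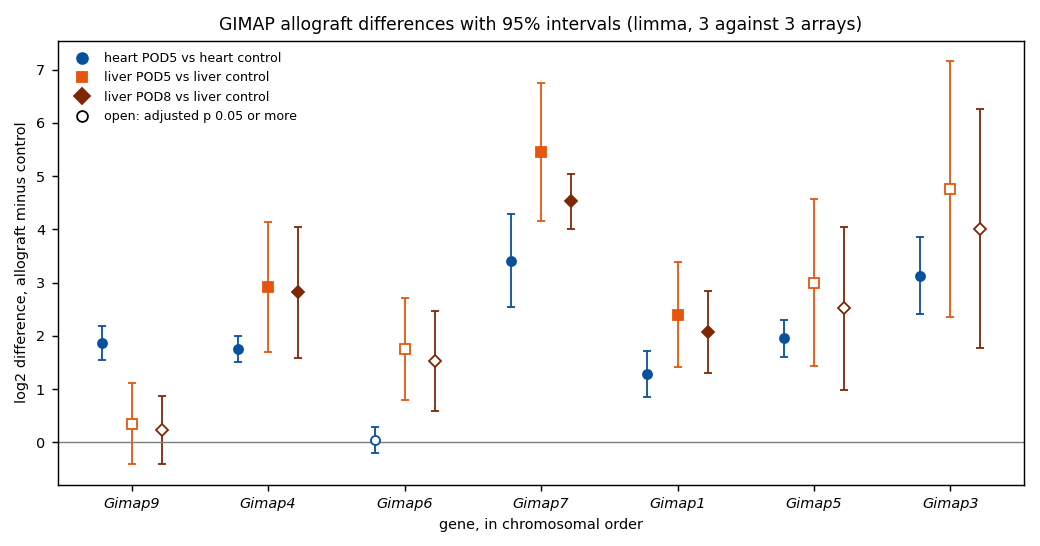
Log2 difference between allografts and controls (vertical axis) for each GIMAP gene in chromosomal order (horizontal axis), for heart POD5, liver POD5 and liver POD8, with bars for the 95% intervals of limma and open symbols for adjusted P-values of 0.05 or more. Gimap6 sits at 0.04 in the heart and Gimap9 at 0.35 and 0.23 in the liver, and the liver points of Gimap3 and Gimap7 rest on controls not well above background.

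Whether the response differed between the organs was tested directly, as the cardiac POD5 difference minus the hepatic POD5 difference in 1 fit of all 5 groups. Organ, the strains of donor and recipient, and operation cannot be told apart there, and in the heart slide and scan date coincide with group. In the liver the allografts at POD5 and the controls shared no slide. In this test 1 of the 7 genes, Gimap9, passed as higher in the heart, against 9.01% of all genes, and 2, Gimap6 and Gimap7, passed as lower in the heart, against 9.13%. Gimap9 gave 1.52 ± 0.34 (adjusted P-value 0.0108), a rise of 1.87 in the heart beside 0.35 in the liver. Gimap6 gave -1.71 ± 0.38 (adjusted P-value 0.0105), from 0.04 in the heart and 1.75 in the liver. For each of the 7 genes the organ with the smaller difference was the one with the higher mean control level. The control level enters each difference, so this is a description and not a test.

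Gimap7 gave -2.04 ± 0.61 (adjusted P-value 0.0385), but its hepatic controls were not well above background. With arrays scaled to their 75th percentile it gave -1.01 (adjusted P-value 0.205), and with normexp background correction -0.65 (adjusted P-value 0.260), so that its call held in neither setting. Gimap6 and Gimap9 kept their calls in both settings. The other 4 genes gave -1.11 for Gimap1 (adjusted P-value 0.0875), -1.17 for Gimap4 (0.126), -1.05 for Gimap5 (0.261) and -1.63 for Gimap3 (0.253), all on the side of the liver and none past the test.

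The controls of the organs differed as well. In cardiac controls 5 genes were called higher than in hepatic controls, against 24.1% of all genes, and Gimap9 was lower, against 23.5%. Gimap6 was higher by 2.15 ± 0.37 (adjusted P-value 0.00612), Gimap5 by 1.95 ± 0.60 (0.0435), Gimap4 by 1.94 ± 0.46 (0.0183) and Gimap1 by 1.61 ± 0.29 (0.00744). Gimap9 differed by -2.27 ± 0.22 (adjusted P-value 0.000793), with cardiac controls at 6.93 to 7.20 and hepatic controls at 8.98 to 9.74. Gimap7, the fifth of those called higher, gave 1.39 (adjusted P-value 0.0201), but its hepatic controls were not well above background and no fold is given, as its bound was under 1. It gave 0.39 (adjusted P-value 0.392) with 75th percentile scaling and 0.20 (adjusted P-value 0.163) with normexp correction. The hepatic controls of Gimap3 were not well above background either, and Gimap3 gave 1.57 (adjusted P-value 0.212). Organ, slide and any difference of strain or operation cannot be told apart in this comparison.

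The genes did not share 1 order of means across the 5 groups. Gimap1, Gimap4 and Gimap5 had the same order of means, from cardiac allografts (10.82 ± 0.26, 9.06 ± 0.11 and 10.98 ± 0.16, SD, n = 3) through hepatic allografts at POD5 and POD8 and cardiac controls to hepatic controls (7.93 ± 0.54, 5.37 ± 0.90 and 7.08 ± 1.17). The hepatic allografts of the 2 days overlapped for each of these genes, and for Gimap1 those at POD5 also overlapped the cardiac allografts. Gimap3 and Gimap7 had their highest means in hepatic allografts at POD5 (8.05 and 7.37), which overlapped the cardiac allografts (7.99 and 6.73). Their lowest means were in hepatic controls, and for Gimap3 these overlapped the cardiac controls.

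Gimap6 and Gimap9 departed from those orders. Gimap6 had cardiac allografts (10.57 ± 0.03) and cardiac controls (10.53 ± 0.13) at the top, overlapping each other and lying above all 3 liver groups. Gimap9 had the 3 liver groups at the top (9.67 ± 0.42, 9.56 ± 0.28 and 9.32 ± 0.38), each overlapping the next, with hepatic controls and cardiac allografts (8.92 ± 0.16) overlapping too and cardiac controls (7.05 ± 0.14) alone at the bottom. Over the 15 arrays the 21 pairs of genes correlated at a median r of 0.84, from -0.35 for Gimap6 with Gimap9 to 0.98 for Gimap1 with Gimap5. Deviations from the group means correlated at a median of 0.47, from -0.60 for Gimap3 with Gimap4 to 0.91 for Gimap5 with Gimap6. These points share arrays and scaling, and the correlations are descriptions.

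T cell and cytotoxic genes rose beside the family in both organs. The share of all genes called higher in cardiac allografts was 15.5%. In cardiac allografts 9 of 9 T cell markers were called higher, with a median of 4.17, among them Cd3e (2.70), Cd3d (4.68) and Cd3g (4.02), the invariant chains of the T cell receptor complex, and Cd2 (4.17). Their summed signal ran from 21464 to 32818 in cardiac allografts and from 2631 to 3760 in cardiac controls. Of the natural killer cell markers 5 of 5 were higher (median 2.72), and of the cytotoxic effector genes 8 of 8 (median 5.65), among them the granzymes Gzma (3.86), Gzmb (7.81) and Gzmk (4.15, well above background on 1 of 3 cardiac controls) and the pore former Prf1 (6.65). Of the B cell markers 1 of 6 was higher, namely Blk (0.70), named after its values were seen and not well above background on any cardiac allograft or control, and of the macrophage markers 0 of 4 passed in either direction.

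In hepatic allografts at POD5 7 of 9 T cell markers were higher, with a median of 4.08, against 2.50% of all genes called higher. The exceptions were Cd3e (0.74, adjusted P-value 0.234) and Cd4 (-0.16, adjusted P-value 0.554). The summed signal of the list lay between 11363 and 20699 at POD5, between 9169 and 11252 at POD8 and between 747 and 977 in hepatic controls. At POD8 7 of 9 were higher (median 3.28), against 3.54% of all genes. At both days 8 of 8 cytotoxic effector genes were higher (medians 5.24 and 5.11). Of the natural killer cell markers 0 of 5 passed at POD5 (median 2.52, 4 at an unadjusted P-value under 0.05) and 3 of 5 at POD8 (median 1.73), but only 0 to 1 of the 5 lay well above background on a hepatic control, so these medians are differences against background, and of the B cell markers 0 of 6 at either day. Macrophage markers gave 0 of 4 called at POD5 (median 1.09) and 0 of 4 at POD8 (median 1.57).

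Endothelial markers moved in the heart in the direction opposite to the GIMAP genes. Of the 10 markers, 6 were lower and 0 higher in cardiac allografts, with a median of -0.998, including Pecam1 (-0.79), the adhesion molecule Cdh5 (-1.76) and the receptor kinases Tek (-2.08) and Tie1 (-1.20). The share of all genes called lower in cardiac allografts was not counted, so these counts stand without a background rate. Their summed signal ran from 13067 to 17106 in cardiac allografts and from 24621 to 30239 in cardiac controls. In hepatic allografts 0 of 10 passed at either day, with medians of 0.49 and 0.45, and the summed signal was 10512 to 14576 at POD5, 10671 to 12855 at POD8 and 8861 to 11696 in controls. In the direct test of the organs 7 of 10 endothelial markers were lower in the heart, against 9.13% of all genes. In controls 6 of 10 were higher in the heart than in the liver, against 24.1% of all genes. Of the 6 cardiomyocyte markers 3 were lower in cardiac allografts, again without a background rate. What part the changes of these cell types had in the GIMAP differences was not tested.

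**Figure D3:**
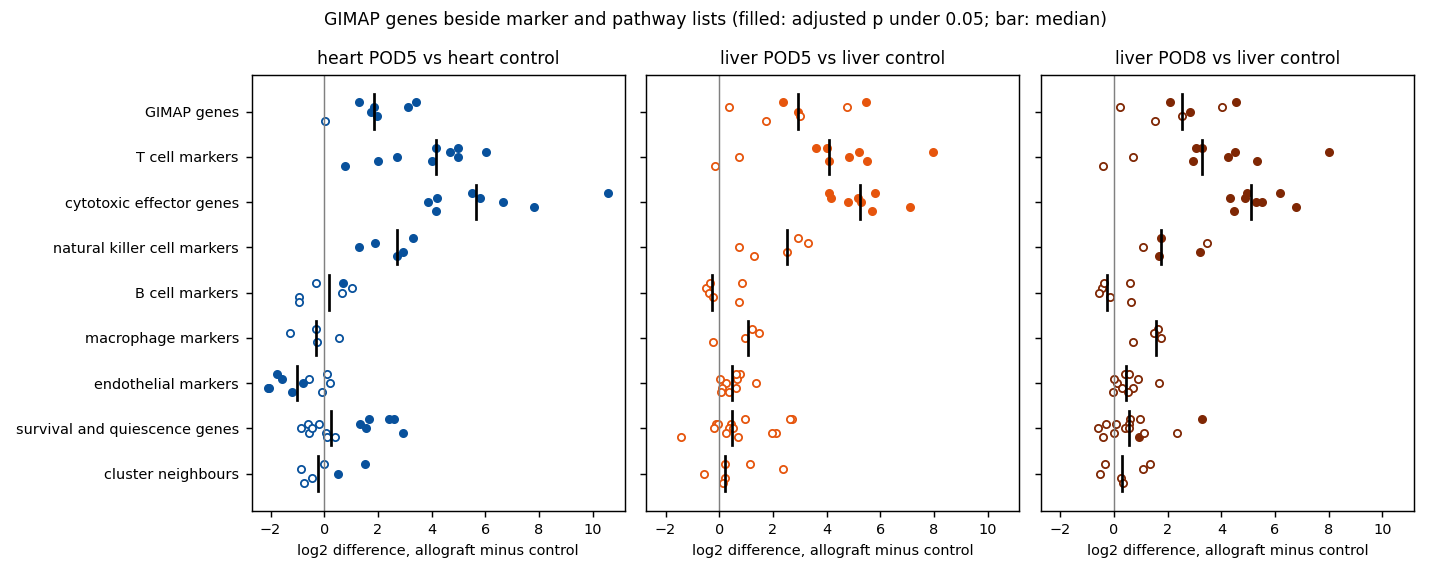
Log2 difference between allografts and controls (horizontal axis) for single genes of the GIMAP family and of 8 lists (rows) in 3 comparisons (panels), with filled points for adjusted P-values under 0.05 and a bar for the median of each list. The median of the GIMAP genes lies between 0 and that of the T cell markers in each panel, the median of the endothelial markers lies below 0 in the heart panel (-0.998), and the cytotoxic genes are filled throughout.

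Set against the marker levels array by array, the genes separated. Gimap5 was low on the arrays with low T cell markers and high on those with high ones in both organs, with mean T cell marker levels of 6.28 to 6.64 in cardiac controls and 10.01 to 10.46 in cardiac allografts. The levels of Gimap6 in cardiac controls and cardiac allografts overlapped although the T cell markers differed between these groups. The endothelial markers went from 10.63 to 10.83 in cardiac controls to 9.73 to 9.75 in cardiac allografts. The levels of Gimap9 in hepatic controls and hepatic allografts overlapped. Mean T cell marker levels were 5.61 to 6.08 in those controls and 9.20 to 10.00 in those allografts.

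**Figure D4:**
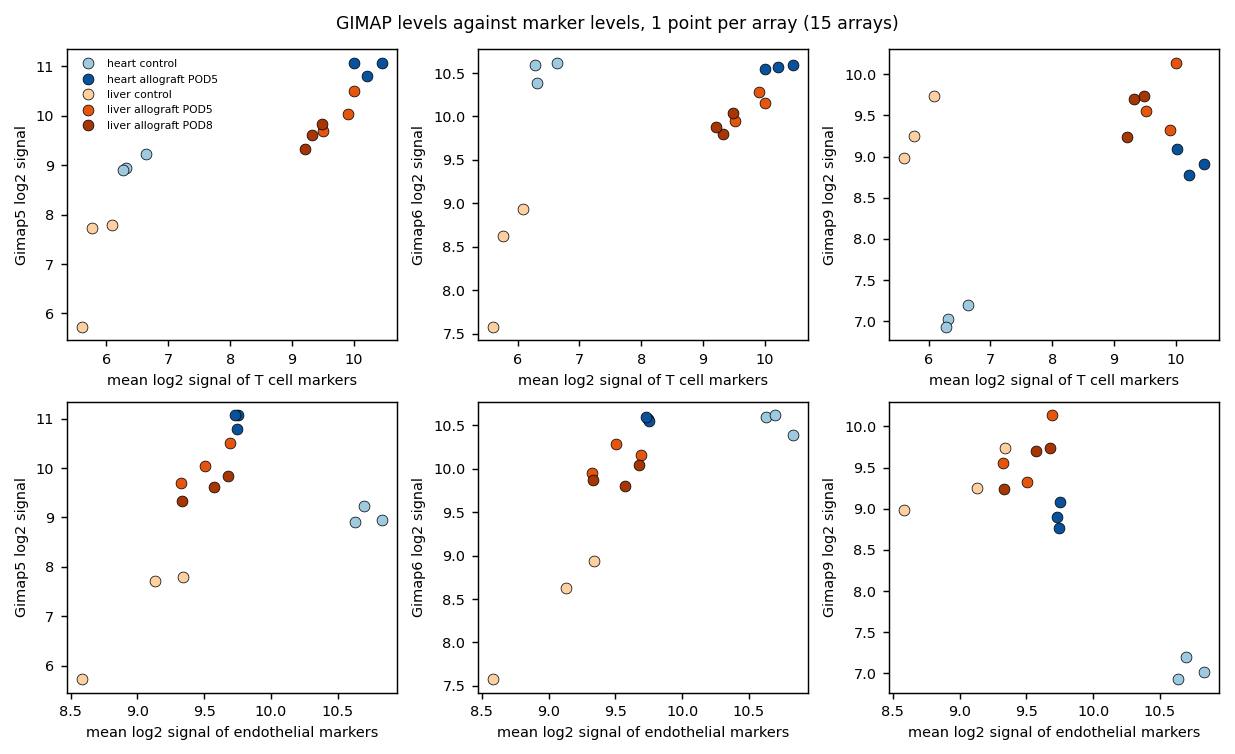
Log2 signal of Gimap5, Gimap6 and Gimap9 (vertical axes) against the mean log2 signal of T cell markers (upper row) and endothelial markers (lower row, horizontal axes), with 1 point per array and a colour per group. Gimap6 stays between 10.39 and 10.62 in both cardiac groups, and Gimap9 is high in all 3 liver groups whether T cell markers are low or high.

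The genes next to the family on the chromosome were read beside it. The 3 nearest genes with a probe on each side were Repin1, Zfp775 and AI854703 before it and Tmem176b, Tmem176a and Aoc1 after it. In cardiac allografts 2 of these 6 were called higher, against 15.5% of all genes. They were Zfp775 (1.51, adjusted P-value 0.0259, not well above background on any cardiac control) and Repin1 (0.53, adjusted P-value 0.0439), and the median of the 6 was -0.24. In hepatic allografts 0 of 6 were called at either day, with medians of 0.20 and 0.29. The difference between the 6 neighbours and the family was not tested.

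Genes of lymphocyte survival and quiescence, a field in which the GIMAP proteins act, were mixed. In cardiac allografts 6 of the 14 genes reported here were higher and 0 lower, with a median of 0.25, against 15.5% of all genes called higher. The survival factor Bcl2 was higher by 1.55 (adjusted P-value 0.00270), whereas the cytokine receptor Il7r (0.06, adjusted P-value 0.918), Bcl2l1 (-0.56, adjusted P-value 0.0543) and Mcl1 (-0.20, adjusted P-value 0.443) did not pass. In hepatic allografts 0 of 14 passed at POD5 by limma (6 at an unadjusted P-value under 0.05, median 0.48) and 2 of 14 at POD8 (median 0.55). The shares of all genes called higher were 2.50% at POD5 and 3.54% at POD8. The 2 at POD8, named after their values were seen, were the chemokine receptor Ccr7 (3.26, adjusted P-value 0.0406), whose hepatic controls lay well above background on 1 of 3 arrays, and the pro-death gene Bcl2l11 (0.91, adjusted P-value 0.0188).

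The genes whose pattern was most like the mean of the 7 GIMAP genes were sought among 22390 genes well above background on at least 3 arrays. By Pearson correlation over 15 arrays they were the transcript U07662 (0.992), Cd247 (0.990), Traf3ip3 (0.989), Klrd1 (0.988), Sh2d1a (0.986), Cd3g (0.986), Rbl1 (0.979), the transcript AK089750 (0.979), Lrmp (0.977) and Epsti1 (0.977). Cd247 and Cd3g are chains of the T cell receptor complex, Klrd1 is a receptor chain of natural killer and activated T cells, and Sh2d1a is a lymphocyte signalling adaptor. Taken on deviations from the group means, the correlations of the 10 genes ran from 0.709 to 0.932. The arrays share their groups and scaling, and the likeness is a description.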

How the data were processed

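Total RNA of each graft or control was labelled with Cy3 and hybridised to an Agilent array. The authors deposited, for each spot, the processed intensity and median signals of the scanner software (Feature Extraction 10.5.1.1 per the file headers), background-subtracted and not normalized between arrays. Spots flagged as outliers (47 to 113 on an array) were removed here, the spots of each probe were averaged, and log2 intensities were quantile normalized over the 15 arrays. A probe was well above background on an array when at least 0.5 of its spots were so marked. Precision is limited by the number of arrays. Names came from a match of probe accessions to RefSeq transcripts (GRCm38.p6), found for 26690 of 41174 probes. A gene was read from its brightest probe over the 15 arrays.

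Groups were compared with limma 3.58.1 (lmFit, eBayes) in R 4.3.3, with Benjamini-Hochberg adjustment over all probes at 0.05. The organ difference was a contrast in 1 fit of 5 groups. Scripts were tested on simulated data. The data.table package (1.17.8), Python 3.11.15 and matplotlib 3.10.9 were also used. The genes named were all members, the first genes of each list, 3 neighbours on each side and the 10 most alike. The members and gene lists were chosen with earlier results of these data known. Alternatives were other scalings, background corrections, probe rules, tests, blocks and each array left out. The result of 1 gene of the survival and quiescence list is not reported here.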

Additional observations from a re-analysis of the deposited data

Results flagged for a closer look

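The 3 genes given here stand out because their response to allografting differed between heart and liver in the direct test of the difference at POD5 (limma, 1 fit of 5 groups, 3 arrays a group). Organ, strains and operation cannot be told apart in that test, and in the heart slide and scan date coincide with group. In the liver the allografts at POD5 and the controls shared no slide. Gimap6 gave -1.71 ± 0.38 on the log2 scale, cardiac minus hepatic difference (adjusted P-value 0.0105), with 0 of 3 cardiac allografts above every cardiac control and 3 of 3 hepatic allografts above every hepatic control. Gimap9 gave 1.52 ± 0.34 (adjusted P-value 0.0108), with 3 of 3 cardiac allografts above every cardiac control. Gimap7 gave -2.04 ± 0.61 (adjusted P-value 0.0385), with signals not well above background on the 3 hepatic controls. The call of Gimap7 was lost in 12 of 23 alternatives, whereas Gimap6 and Gimap9 each lost theirs in 1 of 23.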

How the results depend on the processing

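In the heart, 6 members were called under every alternative but those with a Bonferroni adjustment, where limma and the standardized fold change (SFC) each called 0, and the count stayed at 6 with each array left out. In the liver the counts moved in both directions. At POD5, where 3 were called, 75th percentile scaling gave 5, normexp 5 (without Gimap7), only probes above background 6 and 1 fit of 5 groups 6, whereas the methods' t-test gave 0, Bonferroni 0, slide as a random block 1 and scan date as a block 1, and 0 to 4 were called with each array left out. At POD8, where 3 were called, the first 4 of these settings gave 6 each, the t-test 1, SFC 1, Bonferroni 0, slide as a fixed block 0 and the arrays within the shared slide 0, and 1 to 5 were called with each array left out. For the organ difference (3) the count was 0 with Bonferroni and 2 to 4 with each array left out. For the controls (6) it was 0 with SFC, 0 with Bonferroni, 3 with the slide as a random block and 4 to 6 with each array left out. The causes were not tested, apart from the fewer arrays or fewer probes that some settings hold. For same-numbered arrays of 2 groups, deviations from the group means correlated between -0.123 and 0.0892 over the probes, which gives no sign that the numbers pair them. With the replicate block 0 members were called at POD5 and 0 at POD8 in the liver, and the replicate block moved no other count by over 1.5 times.

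The differences that changed sign were small and uncalled. Gimap6 in the heart gave -0.026 with SFC and -0.036 to 0.081 with each array left out, the lowest without cardiac control 1. Gimap4 between POD8 and POD5 gave 0.057 with SFC and -0.27 to 0.094 with each array left out, positive without hepatic allograft 2 at POD5 or 3 at POD8. Gimap9 there gave 0.15 with SFC, 0.12 with scan date as a block and -0.29 to 0.12 with each array left out, positive without hepatic allograft 3 at POD5 or 3 at POD8. Of the other single-gene values, 753 kept direction and side of the threshold, 107 lost a call and 34 gained one. Scaling to the 75th percentile moved the median of all probes to 0.47 in the heart, -0.38 and -0.46 in the liver at POD5 and POD8, 0.64 for the organ difference and -0.76 for the controls, and on that scale Gimap6 in the heart (0.02) lies below the median of all probes. A block for slide was not run in the heart, where slide and group coincide, nor one for scan date there, at POD8, for the organ difference or for the controls.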
